A study of Rattus norvegicus with 58 samples.

Results

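The complement and coagulation factors described here are plasma proteins that hepatocytes make and secrete. The list named 34 genes, of which 29 had at least 1 probe set carrying their symbol alone, among 14217 genes so named on the array. They comprised 14 of 16 complement genes and 15 of 18 coagulation genes. F7, F11, F13b, C2 and Cfb were not found under a single symbol and were not analysed here. Where a gene had several probe sets, the one with the highest mean over all arrays stood for it, and 4 members (Fga, Masp1, Masp2 and Mbl2) had more than 1.

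The livers came from 58 male rats of 17 weeks, fasted overnight and killed by decapitation, with 1 Affymetrix array per rat. Of these, 46 were outbred heterogeneous stock (HS) rats, 23 glucose-intolerant and 23 with normal glucose tolerance. The groups follow the sample titles (high or low glucose), because the description given for the high-glucose animals is ambiguous between normal tolerance and intolerance. The other 12 came from inbred lines, with 2 arrays each for WKY, F344, ACI, BN, BUF and M520. The labels name no transgene or drug for any rat, and all rats were caged in pairs and fed freely before the fast. All values are log2 expression as deposited, where 1 unit stands for a 2-fold difference.

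Complement is a cascade of serum proteases and binding proteins. Recognition proteins such as the mannose-binding lectin Mbl2 and its proteases Masp1 and Masp2 start it, C3 is its central component, and C5, C6, C8 and C9 assemble into the pore called the membrane attack complex. Regulators such as Cfi, the C4b-binding protein chains C4bpa and C4bpb, and the C1 inhibitor Serping1 restrain it. Coagulation runs through a parallel cascade in which prothrombin (F2), F9, F10 and F5 lead to thrombin, and thrombin turns fibrinogen (Fga and Fgg among its chains) into fibrin. Antithrombin (Serpinc1), heparin cofactor II (Serpind1), protein C (Proc) and protein S (Pros1) limit clotting, while plasminogen (Plg) dissolves fibrin. Liver is the main source of most of these proteins.

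Promoter windows of RefSeq (build GRCr8) were available for 23 of the 29 members, running from 250 bases before to 50 bases after the start that the sequence table uses. For C6, C8b and Fgg that start lies inside the extent of the gene in the GRCr8 gene table. The 5 shown are C6, the member that varied most, and the neighbouring pairs C8a with C8b and Fga with Fgg, whose levels were compared across HS rats. Each is written 5′ to 3′ on the gene's own strand, with capitals marking the letters of a searched motif on either strand. C6 lies at chr2:55573383-55573682 (plus strand), C8a at chr5:124866582-124866881 (minus strand) and C8b at chr5:124763864-124764163 (plus strand). Fga lies at chr2:170671919-170672218 (plus strand, 1 of 2 listed windows) and Fgg at chr2:170652833-170653132 (plus strand).
C6: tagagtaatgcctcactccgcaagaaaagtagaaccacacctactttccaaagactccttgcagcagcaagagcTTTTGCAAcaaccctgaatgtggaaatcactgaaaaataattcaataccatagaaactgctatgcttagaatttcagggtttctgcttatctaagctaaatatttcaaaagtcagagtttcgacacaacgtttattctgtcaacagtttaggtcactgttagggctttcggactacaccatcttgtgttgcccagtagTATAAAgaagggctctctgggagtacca
C8a: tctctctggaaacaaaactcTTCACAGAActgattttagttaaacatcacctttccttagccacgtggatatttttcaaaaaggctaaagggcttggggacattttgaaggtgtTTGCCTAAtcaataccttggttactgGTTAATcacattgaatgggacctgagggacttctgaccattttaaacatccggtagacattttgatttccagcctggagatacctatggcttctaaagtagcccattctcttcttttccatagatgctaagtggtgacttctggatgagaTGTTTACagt
C8b: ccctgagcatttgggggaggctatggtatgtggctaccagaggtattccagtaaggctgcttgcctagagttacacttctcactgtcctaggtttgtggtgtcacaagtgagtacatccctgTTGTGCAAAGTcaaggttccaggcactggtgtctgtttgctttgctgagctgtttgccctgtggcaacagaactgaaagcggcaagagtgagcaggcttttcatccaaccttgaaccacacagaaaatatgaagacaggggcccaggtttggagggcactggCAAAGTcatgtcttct
Fga: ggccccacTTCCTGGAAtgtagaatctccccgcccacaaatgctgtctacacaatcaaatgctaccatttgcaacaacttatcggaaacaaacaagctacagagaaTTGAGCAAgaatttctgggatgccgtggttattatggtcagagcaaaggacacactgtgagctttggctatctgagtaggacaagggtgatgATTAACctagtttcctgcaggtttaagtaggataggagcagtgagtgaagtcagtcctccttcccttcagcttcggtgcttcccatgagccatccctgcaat
Fgg: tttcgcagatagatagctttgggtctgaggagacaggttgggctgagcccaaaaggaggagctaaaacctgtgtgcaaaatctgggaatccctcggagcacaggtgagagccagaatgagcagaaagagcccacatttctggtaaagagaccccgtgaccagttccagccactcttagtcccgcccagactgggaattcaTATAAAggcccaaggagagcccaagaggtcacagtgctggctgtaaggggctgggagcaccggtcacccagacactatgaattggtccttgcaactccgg

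Motifs were searched as letters on both strands, where N is any base. The HNF1 half-site GTTAAT occurred in 8 of the 23 member promoters (34.8%), among them C8a and Fga above, against 7.45% of all 33469 windows. The C/EBP form TTGCNNAA occurred in 9 (39.1%), among them C6, C8a, C8b and Fga, against 10.6% of all windows. The STAT3-type form TTCNNNGAA occurred in 5 members (21.7% against 8.87%) and the FOXA core TGTTTAC in 4 (17.4% against 3.78%). The HNF4 half-site CAAAGT occurred in 2 members, C8b and F9 (8.70% against 14.8%), and the letters TATAAA in 2, C6 and Fgg (8.70% against 14.2%). In C6 these letters begin at position 23 after the start, not before it. The C/EBP and HNF4 letters overlap in C8b. HNF1, HNF4, FOXA and C/EBP are transcription factors of hepatocytes, and STAT3 carries the interleukin-6 signal. A match in these letters is a description of the window and was not tested as a binding site.

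The factors gave bright signals. Their median level over all arrays was 12.6, against 6.60 for all genes, and C3, at up to 14.26, was the highest. C6 was the dimmest, at a mean of 8.94 over the 58 arrays. Array medians lay between 5.33 and 5.39, no 2 arrays held identical values, and the arrays of a strain correlated at 0.989 to 0.997. Hepatocyte markers (7 of 8 measured, such as Alb and Apoa1) averaged 13.9 to 14.2 in every array, while neutrophil and lymphocyte markers averaged 5.14 or less. The highest value of any probe set was 14.97, and the hepatocyte markers nearest it varied little. Alb (mean 14.94), Ttr (14.36) and Serpina1 (14.32) had ranges of strain means of 0.02, 0.08 and 0.09. Over all 7 measured hepatocyte markers, down to a mean level of 13.1, ranges reached 1.01. Small ranges of the brightest members were read in the same part of the scale, and the part of brightness in them was not tested. Levels of different genes come from different probes and are not ranked here as amounts of RNA. Among HS rats, normal rat 16 held the highest value of 9 members (Serpinc1, Klkb1, C5, C8a, C8b, C9, Cfi, C4bpb and Serping1), and normal rat 39 the lowest value of 6. Over all genes their median correlations with the other HS arrays, 0.988 and 0.987, were among the 3 lowest of 46, where the median was 0.991. Results across HS rats that rest on them are given without them as well, a check added after the data were seen.

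The main difference among the inbred livers was in C6, which joins the membrane attack complex after C5 is cleaved. C6, read by 1 probe set, was 10.62 and 11.10 in WKY, 10.56 and 10.23 in F344, 9.88 and 9.88 in ACI, 8.65 and 8.73 in BN, 8.29 and 8.15 in BUF, and 7.79 and 7.98 in M520. The arrays of WKY, F344 and ACI were therefore all above those of BN, BUF and M520, and no 2 strains overlapped. Strain means spanned 2.98 on the log2 scale, a 7.87-fold range, with a within-strain SD of 0.18 (n = 2 per strain). In limma's moderated F test over the 6 strains, C6 had an adjusted p of 2.21e-06, and it stayed past 0.05 in each of 21 alternative settings and single-array omissions (highest adjusted p 0.00101).

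**Figure D1:**
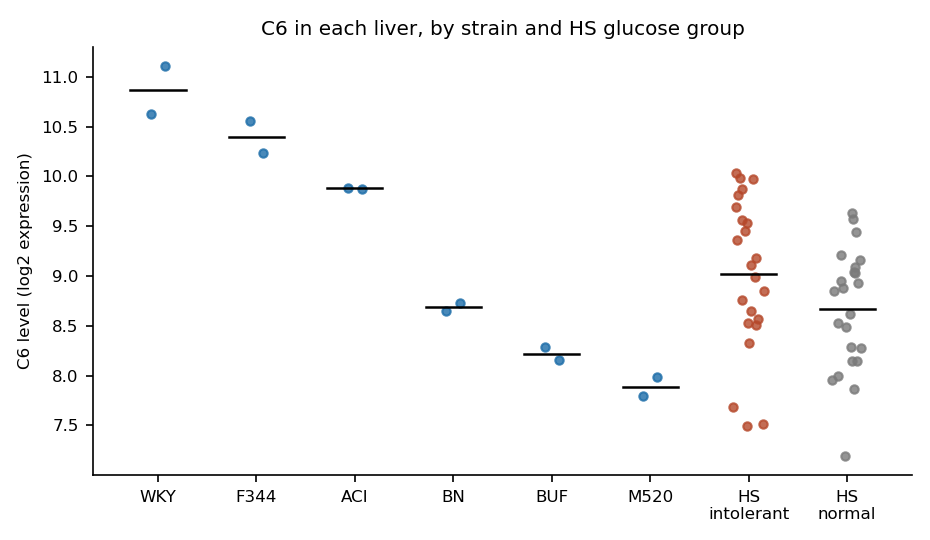
C6 level (log2 expression, vertical axis) in each liver, with 1 point per array and a bar at the group mean, for 6 inbred strains with 2 arrays each and 2 HS groups with 23 rats each. WKY, F344 and ACI arrays lie at 9.88 or above and BN, BUF and M520 arrays at 8.73 or below, while HS rats spread from 7.20 to 10.04.

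In the order of C6 levels, only the step between ACI and BN passed the test on its own. ACI exceeded BN by 1.19 ± 0.17 (SE, limma adjusted p = 0.00226), a 2.28-fold difference. The steps WKY over F344 (0.47, adjusted p = 0.183), F344 over ACI (0.52, adjusted p = 0.202), BN over BUF (0.47, adjusted p = 0.145) and BUF over M520 (0.33, adjusted p = 0.282) did not. Between the ends of the order, WKY exceeded M520 by 2.98 ± 0.17 (SE, limma adjusted p = 2.04e-06). These steps were chosen after the levels were seen. In the same contrasts 4.6% of all genes differed between WKY and F344, 1.77% between F344 and ACI, 3.75% between ACI and BN, 7.01% between BN and BUF, 5.99% between BUF and M520 and 7.23% between WKY and M520.

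Against the mean of the other 5 strains, C6 was higher in WKY (1.85 ± 0.13, SE, limma adjusted p = 1.08e-05), F344 (1.29) and ACI (0.67), and lower in M520 (-1.72 ± 0.13, SE, adjusted p = 4.2e-05), BUF (-1.32) and BN (-0.76). In a fit of all 58 arrays that pools the spread of HS rats, the calls for ACI, BN, BUF and F344 were lost, with adjusted p from 0.0999 to 0.611. The ACI and BN calls were also lost without either array of the strain itself (adjusted p of 0.342 and 0.219 without ACI array 1 or 2, and 0.111 and 0.0605 without BN array 1 or 2).

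C6 also varied widely among HS rats. It ran from 7.20 to 10.04 over the 46 rats, with a median of 8.91 and an SD of 0.72, against a largest SD of 0.30 among the other 28 members. All 46 HS rats were below both F344 arrays and both WKY arrays, 3 were above both ACI arrays and 4 were below both M520 arrays. The lowest and highest HS rats thus differed 7.17-fold, beside the 7.87-fold range of the strain means.

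Of the 8 nearest measured genes to C6 in the GRCr8 gene order, 4 on each side, 2 were called by the F test, while its share over all genes was 13.8%. Ttc33 (adjusted p = 0.0119) averaged 7.42 in WKY, 7.26 in ACI, 6.67 in F344 and 6.62 in M520, and Dab2 (adjusted p = 0.0276) was highest in BN, at 8.20, and lowest in BUF, at 6.97. Plcxd3, Oxct1, Rimoc1, Fbxo4, Prkaa1 and Ptger4 had adjusted p of 0.0999 or more. These genes were chosen after C6 was seen, and Plcxd3, Oxct1 and Ptger4 were dim, with means of 2.53, 4.87 and 3.98.

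The other members of the pore had smaller ranges. C5, whose cleavage starts pore assembly, read 12.11 and 12.05 in WKY and 12.04 and 11.97 in BN, against 11.52 to 11.77 in the 8 arrays of ACI, BUF, F344 and M520. WKY and BN were thus the high strains, and the range of means was 0.53, a 1.44-fold range. C5 passed the F test (limma, adjusted p = 0.0336), and WKY exceeded the other 5 by 0.38 ± 0.09 (SE, adjusted p = 0.0397). The F test lost C5 in 10 of 12 single-array omissions, all but those of the BUF arrays (adjusted p up to 0.0863), and in the fit of all arrays (adjusted p = 0.16). The WKY call was lost in the same 10 omissions (adjusted p up to 0.31), with array weights (0.078) and in the fit of all arrays (0.191).

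C8b, a chain of the C8 component that inserts into membranes, read 11.80 and 11.88 in BN, against 12.10 to 12.37 in the 10 other inbred arrays. BN was lower (-0.40 ± 0.09, SE, limma adjusted p = 0.0281), although C8b did not pass the F test (adjusted p = 0.0877). C8g, the small lipocalin-like chain of the same component, read 12.49 and 12.53 in M520, against 12.67 to 13.03 in the other inbred arrays, a difference of -0.38 ± 0.09 (SE, limma adjusted p = 0.0321, and F test adjusted p = 0.0564). C8a and the ring-forming C9 had ranges of 0.36 and 0.27 and F test adjusted p of 0.422 and 0.421. The BN call of C8b and the M520 call of C8g were lost without either array of that strain (adjusted p of 0.295 and 0.132 for C8b, and 0.248 and 0.192 for C8g). They were also lost without either ACI array, C8b (up to 0.0637) without M520 array 2 and C8g (up to 0.0676) without either BN array.

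The listed complement members upstream of the pore did not pass the F test. C3, the brightest member, had the smallest range of strain means, 0.09 (adjusted p = 0.979), at a level where Alb, Ttr and Serpina1 had smaller ranges. The lectin pathway genes had wider ranges without passing, with Masp2 at 0.76 (adjusted p = 0.147), Mbl2 at 0.68 (adjusted p = 0.07) and Masp1 at 0.65 (adjusted p = 0.0679). Among regulators, C4bpa had a range of 0.50, C4bpb of 0.41, the C3b-degrading protease Cfi of 0.31 and Serping1 of 0.26, with adjusted p from 0.17 to 0.366.

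**Figure D2:**
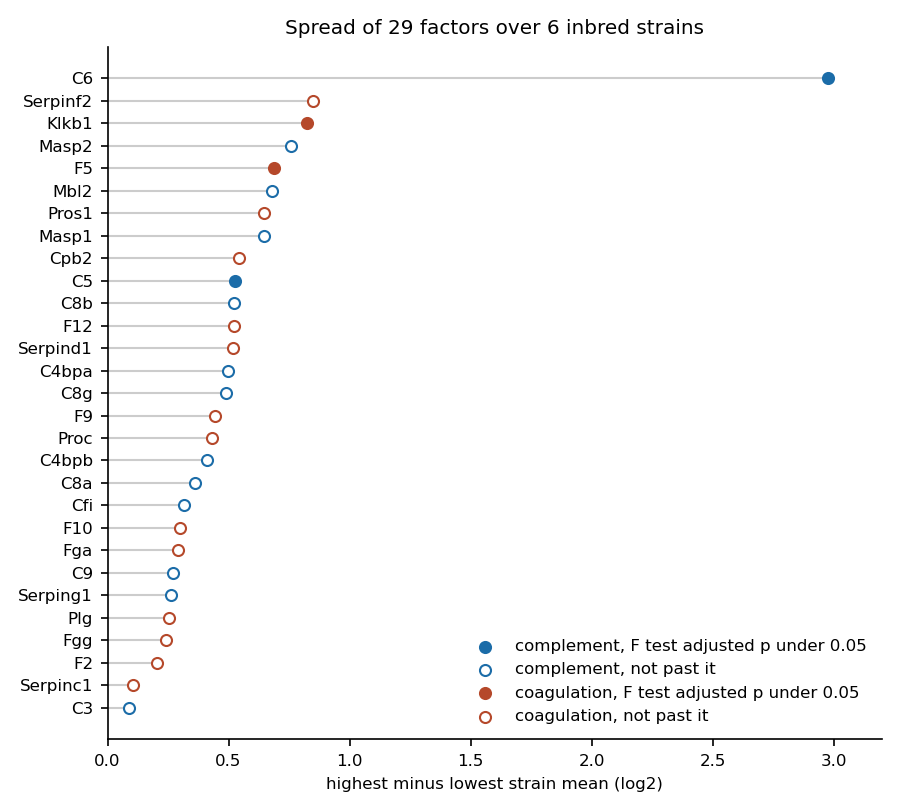
Highest minus lowest strain mean (log2, horizontal axis) of each of the 29 factors over 6 inbred strains, with filled points where the limma F test had an adjusted p under 0.05. C6 stands at 2.98 and the next member, Serpinf2, at 0.85.

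Among the 15 listed coagulation members the largest range of strain means was 0.85. F5, the cofactor of the complex that makes thrombin, read 10.86 and 10.79 in BUF, against 11.20 to 11.57 in the 10 other inbred arrays. BUF was the low strain, by -0.59 ± 0.09 (SE, limma adjusted p = 0.00412), and the range of means was 0.69 (F test adjusted p = 0.0133). The F test call was lost only without BUF array 2 (adjusted p = 0.0739), and the BUF call likewise (adjusted p = 0.0841).

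Klkb1, plasma prekallikrein of the contact system, read 12.24 and 12.42 in ACI, 12.34 and 12.06 in WKY, 11.76 and 11.93 in BN, 11.86 and 11.89 in BUF, 11.39 and 11.90 in F344, and 11.44 and 11.58 in M520. ACI and WKY were the high strains, and the F344 arrays lay on both sides of the BN array at 11.76. Klkb1 passed the F test (limma, adjusted p = 0.0384, range 0.82) and no single strain was called against the other 5. The F test call was lost in 8 of 12 single-array omissions, all but those of BUF array 1, both F344 arrays and WKY array 2 (adjusted p up to 0.132), in the fit of all arrays (0.141) and after quantile normalisation (adjusted p = 0.0538).

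**Figure D3:**
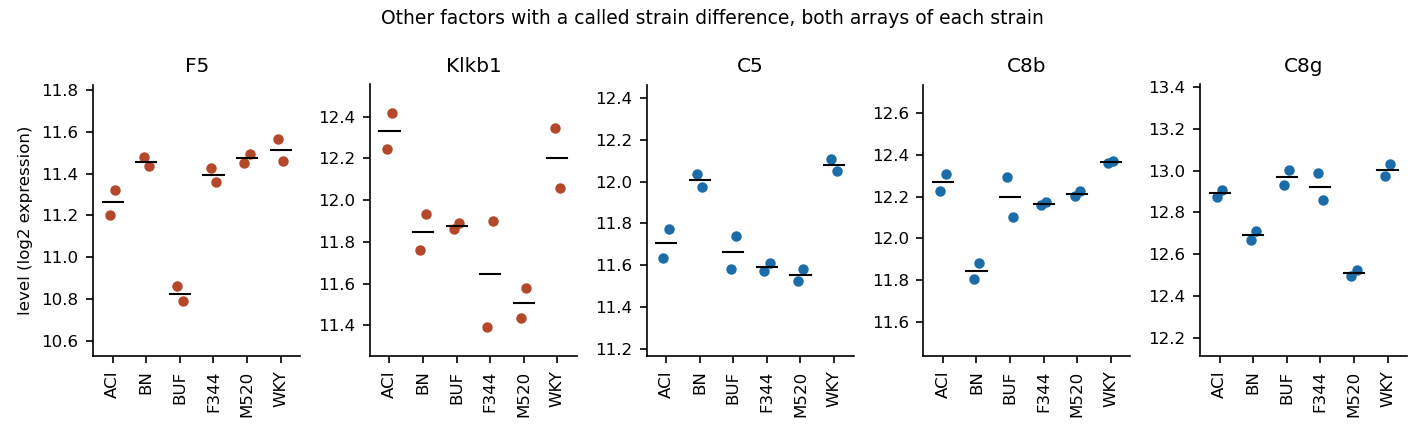
Levels (log2 expression, vertical axes of equal height) of F5, Klkb1, C5, C8b and C8g in both arrays of each inbred strain, with a bar at the strain mean. BUF is low for F5 at a mean of 10.82, BN for C8b at 11.84 and M520 for C8g at 12.51.

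The other 13 coagulation members did not pass. The widest was the plasmin inhibitor Serpinf2, with strain means of 12.36 in BUF and 11.51 in ACI and a within-strain SD of 0.25 (adjusted p = 0.101). Pros1 (0.65), the carboxypeptidase Cpb2 that protects fibrin (0.54), the contact factor F12 (0.52) and Serpind1 (0.52) followed, with adjusted p from 0.0917 to 0.212. F9 (0.44), Proc (0.43), F10 (0.30), Fga (0.29), Plg (0.25), Fgg (0.24), F2 (0.20) and Serpinc1 (0.10) had smaller ranges of strain means, with adjusted p from 0.112 to 0.971. Prothrombin and antithrombin, which inhibits its product thrombin, had the smallest ranges of the coagulation members, at mean levels of 13.46 and 13.79.

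In all, 4 of 29 members passed the F test (C6, C5, F5 and Klkb1), 2 of 14 complement and 2 of 15 coagulation genes. That share, 13.8%, was the same as the 13.8% of all genes called, and below the 20% of the 2422 genes at least as bright as C6. The median range of strain means was 0.49 for complement, 0.44 for coagulation and 0.44 for all genes. Of member and strain pairs, 10 of 174 were called against the other 5 strains, 6 of them C6, against 4.69% of gene and strain pairs overall. Among the genes at least as bright as C6, 972 of 14532 such pairs were called. Leaving out single arrays moved the count of members between 2 and 11. It was 11 (37.9%, against 23% of all genes) without BUF array 1, and 2 (6.9%, against 8.07% to 11.7% of all genes) without either ACI, BN or M520 array or BUF array 2. Strain contrasts share arrays, so a high strain lowers the others.

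Counted by strain, the called members were few. ACI had 1 higher (C6) and 0 lower, beside 1.46% and 0.985% of all genes, and F344 had 1 higher (C6) and 0 lower, beside 0.795% and 0.935%. WKY had 2 higher (C5 and C6) and 0 lower, beside 3.53% and 2.26%. BN had 0 higher and 2 lower (C6 and C8b), beside 3.36% and 2.39%. BUF had 0 higher and 2 lower (C6 and F5), beside 3% and 3.86%, and M520 had 0 higher and 2 lower (C6 and C8g), beside 1.34% and 4.22%. In WKY 24 of 29 members had a mean above the other 5 strains (median difference 0.15), and in M520 8 of 29 (median difference -0.09). Between these ends, the counts were 21 in ACI (median 0.11), 17 in F344 (0.01), 10 in BN (-0.06) and 9 in BUF (-0.10). Over all genes, 7535 of 14217 in WKY and 6354 of 14217 in M520 had a mean above the other 5 strains, with medians of 0.01 and -0.03. For ACI, F344, BN and BUF these counts over all genes were 6510, 6936, 7482 and 7893. Among the 2422 genes at least as bright as C6, the counts were 1435 in WKY and 1089 in M520, with medians of 0.04 and -0.03. They were 1398 in ACI, 1304 in F344, 1288 in BN and 1085 in BUF. Means in WKY were also above the other 5 strains for 7 of 7 hepatocyte markers. The same held for 17 of 18 complement and 15 of 23 coagulation genes outside the list.

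Where a gene had several probe sets, the calls did not always match. Masp1 at its brightest probe set was not called, but a dim one (mean 6.13) passed the F test (adjusted p = 0.0208), with WKY at 6.79 and the other strains between 5.95 and 6.23. A probe set of Fga with a mean of 10.7 also passed (adjusted p = 0.0291), with means of 11.27 in WKY and 10.50 in M520, whereas the brighter Fga probe set, at 13.9, did not (adjusted p = 0.431). The brightest Masp2 probe set was highest in M520, at 11.23, while another of nearly equal brightness read 10.55 there and 10.97 in F344, its highest strain. Values for Masp2 therefore depend on the probe set. For Mbl2 both probe sets were highest in ACI, at 13.01 and 10.25.

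Other genes of these pathways were tested as well. Of 18 other complement genes 7 passed the F test (C1r, C1s, C1qc, Fcna, Cr1l, Colec11 and C5ar1) and of 23 other coagulation genes 13 did, against 13.8% of all genes. Their median levels, 8.92 and 7.02, were lower than those of the members. Classical pathway proteases made by hepatocytes were among them. C1r averaged 12.57 in WKY and 11.63 in BN (adjusted p = 0.0154), and was called higher in WKY (0.59) and lower in BN (-0.54). C1s averaged 12.78 in ACI and 12.76 in WKY (F test adjusted p = 0.0157) and was called lower in M520 (-0.56, limma adjusted p = 0.0123). Ficolin Fcna, a lectin of macrophages, averaged 9.05 in BN and 8.01 in M520 (F test adjusted p = 0.0152). C1qc, a C1q chain, averaged 9.77 in WKY and 8.77 in M520 (F test adjusted p = 0.0309). C1qa and C1qb, the other C1q chains, were measured and did not pass. Cr1l, a membrane regulator of C3, averaged 9.85 in ACI and 8.98 in BUF (adjusted p = 0.0288).

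Markers of macrophages, which make C1q and ficolin, are given beside Fcna and C1qc. Of 8 listed, 6 were measured and 3 passed the F test, beside 13.8% of all genes. The mean log2 level of these 6 was 8.57 and 9.75 in the BN arrays, 8.75 to 9.06 in WKY and 8.46 to 8.75 in ACI. It was 8.27 to 8.48 in F344, 8.06 to 8.29 in BUF and 7.93 to 8.18 in M520. The part of macrophages in these differences was not tested, and in whole liver, fewer cells of a type and less RNA per cell cannot be told apart. The lower BN array was below both WKY arrays. The mean log2 level of hepatocyte markers spanned 13.99 to 14.23 over the 12 inbred arrays. Of the 7 hepatocyte markers measured, 1 passed the F test and 1 was called lower in M520, beside 13.8% and 4.22% of all genes.

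Coagulation genes outside the list covered inhibitors, vessel-wall proteins and the vitamin K cycle. The acute phase protease inhibitor A2m averaged 7.08 in WKY and 4.65 in F344 (adjusted p = 0.00191), and the protein C inhibitor Serpina5 6.22 in F344 and 4.01 in WKY (adjusted p = 0.000547). The vessel-wall gene Vwf averaged 7.54 in BN and 5.84 in M520 (adjusted p = 0.00806), and Thbd, the thrombin receptor of endothelium, 6.41 in BN and 5.11 in F344 (adjusted p = 0.000365). Plat, which activates plasminogen, averaged 6.95 in WKY and 5.71 in BUF (adjusted p = 0.00246). Of 6 endothelial markers, 5 were measured and 3 passed the F test, beside 13.8% of all genes. Their mean log2 level was highest in BN as well, at 8.89 and 9.12, against 7.99 to 8.78 in the other strains. The part of endothelial cells was not tested. Ggcx and Vkorc1, enzymes of the vitamin K cycle named after their values were seen, went opposite ways in M520. Ggcx, the carboxylase of clotting factors, was higher (0.52, limma adjusted p = 0.024). Vkorc1, which recycles the vitamin, was lower (-0.51, limma adjusted p = 0.0139). Of the 23 other coagulation genes, 1 was called higher in M520 and 4 lower, beside 1.34% and 4.22% of all genes. The RNA levels of the Ggcx substrates F2, F9, F10, Proc and Pros1 were not called in M520.

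Of 12 measured liver transcription factors, 1 passed the F test, beside 13.8% of all genes. It was Nr1h4, the bile acid receptor FXR (F test adjusted p = 0.0257), which was lower in BN, by -0.64 ± 0.11 (SE, limma adjusted p = 0.00502). Cebpa did not pass the F test but was lower in ACI, by -0.57 (limma adjusted p = 0.038). Hnf4a, Cebpb, Stat3 and the Foxa genes were not called by it.

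No factor was called between the glucose groups of HS rats. The smallest adjusted p of the 29 was 0.544, and 0% of all genes passed 0.05 in limma. At an unadjusted p under 0.05 there was 1 of 29 members, Mbl2, against 8.6% of all genes. Mbl2 ran from 12.33 to 12.86 with a median of 12.59 in intolerant rats, and from 12.10 to 12.81 with a median of 12.51 in normal rats. The groups overlapped over most of their ranges, and the difference was 0.11 ± 0.05 (SE, p = 0.0203, adjusted p = 0.544).

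C6 ran from 7.49 to 10.04 with a median of 9.11 in intolerant rats, and from 7.20 to 9.63 with a median of 8.84 in normal rats. The 3 HS rats above both ACI arrays were all intolerant, but the groups overlapped. The C6 mean was 9.02 ± 0.78 for intolerant rats and 8.66 ± 0.61 for normal rats (n = 23 each, SD), and the difference 0.35 with a 95% interval from -0.05 to 0.75 (limma adjusted p = 0.662). C9, next by p among complement genes, had means of 13.28 ± 0.10 for intolerant rats and 13.34 ± 0.12 for normal rats (n = 23 each, SD; limma adjusted p = 0.68).

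Among coagulation genes, F5 had means of 11.16 ± 0.18 for intolerant rats and 11.25 ± 0.14 for normal rats (n = 23 each, SD; limma adjusted p = 0.646). Cpb2 averaged 12.48 in intolerant rats and 12.39 in normal rats (limma adjusted p = 0.698), and F9 13.17 in intolerant rats and 13.13 in normal rats (adjusted p = 0.702). Intervals were narrow: for the 28 members other than C6, every 95% interval of the difference lay between -0.28 and 0.21. Endothelial markers had a median level of 8.31 in intolerant rats and 8.47 in normal rats, and macrophage markers 8.19 in intolerant rats and 8.29 in normal rats. Stellate, bile duct, platelet and lymphocyte markers also had the lower median in intolerant rats. Hepatocyte (14.10 against 14.06) and neutrophil markers (4.13 against 4.09) had the higher. The groups overlapped in each set, for endothelial markers 7.53 to 8.67 against 7.82 to 8.68, and these differences were not tested. In all, 19 of 29 members had the higher mean in intolerant rats (10 of 14 complement and 9 of 15 coagulation genes), against 42.5% of all genes and 55.3% of the genes at least as bright as C6, with a median difference of 0.02 for the members, 0.01 for those bright genes and -0.01 for all genes.

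**Figure D4:**
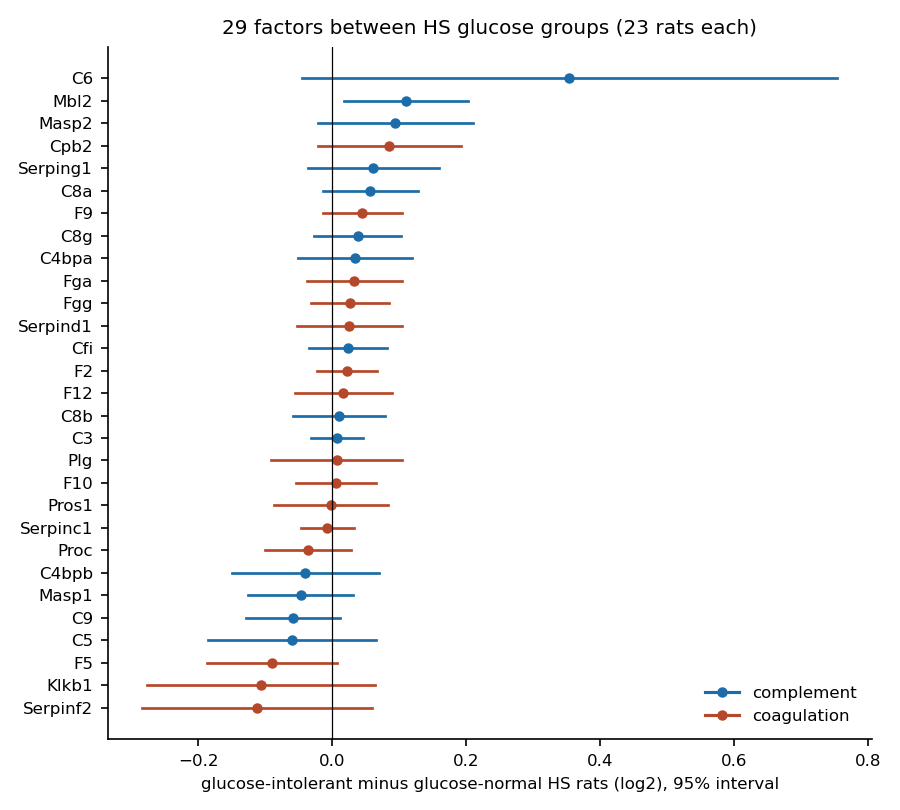
Difference in mean level (log2, horizontal axis) of each factor in glucose-intolerant minus glucose-normal HS rats, 23 rats each, with 95% intervals from limma. C6 has the widest interval, from -0.05 to 0.75, and the other 28 lie between -0.28 and 0.21.

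Apart from C6 the factors had small spreads over HS rats. In 24 of 29 members the SD over 46 rats was under 0.2, and the median SD was 0.14 for complement and 0.12 for coagulation, against 0.17 for all genes and for the genes at least as bright as C6. After C6 the most variable complement genes were C5 (0.21) and Masp2 (0.20), and among coagulation genes Serpinf2 (0.30), Klkb1 (0.30) and Cpb2 (0.19). The highest C5 value was that of normal rat 16, at 12.36, with the next at 11.97, and without it the SD of C5 was 0.18. Without normal rat 39 the SD of Masp2 was 0.17. C8g (0.10), Cfi (0.09) and C3 (0.05) were the least variable complement genes, and Fgg (0.09), F2 (0.06) and Serpinc1 (0.05) the least variable coagulation genes, and C3, Fgg, F2 and Serpinc1 had mean levels of 13.46 or more.

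Neighbouring factor genes rose and fell together across HS rats in 3 of the 4 pairs that could be measured. Fga and Fgg, which encode chains of fibrinogen and adjoin each other in GRCr8, correlated at r = 0.92 and rho = 0.90 over 46 rats (permutation test, two-sided, p = 1e-05 for both, the smallest that 100000 permutations can give, adjusted p = 4e-05 over 4 pairs). The correlation was similar within intolerant rats (r = 0.93), within normal rats (r = 0.90) and without the 2 rats farthest from the Fga median (r = 0.91). It rests on the brighter Fga probe set, with which the other Fga probe set correlated at r = 0.33 over 58 arrays. Fgg was not compared with that other probe set. C8a and C8b, also adjoining, correlated at r = 0.55 and rho = 0.52 (permutation p = 9e-05 and 0.00033, adjusted p = 0.00018 and 0.00066), with r = 0.45 within intolerant rats, 0.61 within normal rats and 0.52 without the 2 farthest rats. Within intolerant rats the rank correlation was no longer past the threshold (rho = 0.43, permutation adjusted p = 0.0562). Without normal rat 16 or 39, r was 0.50 and 0.46.

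C4bpa and C4bpb, with 1 protein-coding gene between them, correlated at r = 0.43 and rho = 0.48 (permutation p = 0.00284 and 0.00072, adjusted p = 0.00379 and 0.00096). Within intolerant and normal rats r was 0.46 and 0.45, and 0.46 without the 2 farthest rats. Within normal rats the rank correlation was no longer past the threshold (rho = 0.40, permutation adjusted p = 0.0837). Without normal rat 16, r was 0.36 (permutation adjusted p = 0.0193), and without rat 39 it was 0.46. C6 and C9, on the same chromosome with 9 protein-coding genes between them, did not correlate (r = 0.05, rho = 6.17e-05, permutation p = 0.749 and 1, adjusted p = 0.749 and 1). Within intolerant and normal rats r was 0.21 and 0.03, and 0.00 without the 2 farthest rats.

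Over all 406 pairs of members the median r was 0.09, with quartiles at -0.14 and 0.32. Fga with Fgg was the highest of these, and the lowest r was -0.72. Members on different chromosomes, Serpinf2 with Plg (r = 0.70) and Fga with C8a (r = 0.69), had higher values than the neighbours C8a with C8b and C4bpa with C4bpb. These other pairs are given as a description. HS rats may share families, which the labels do not give, so they may not be independent.

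**Figure D5:**
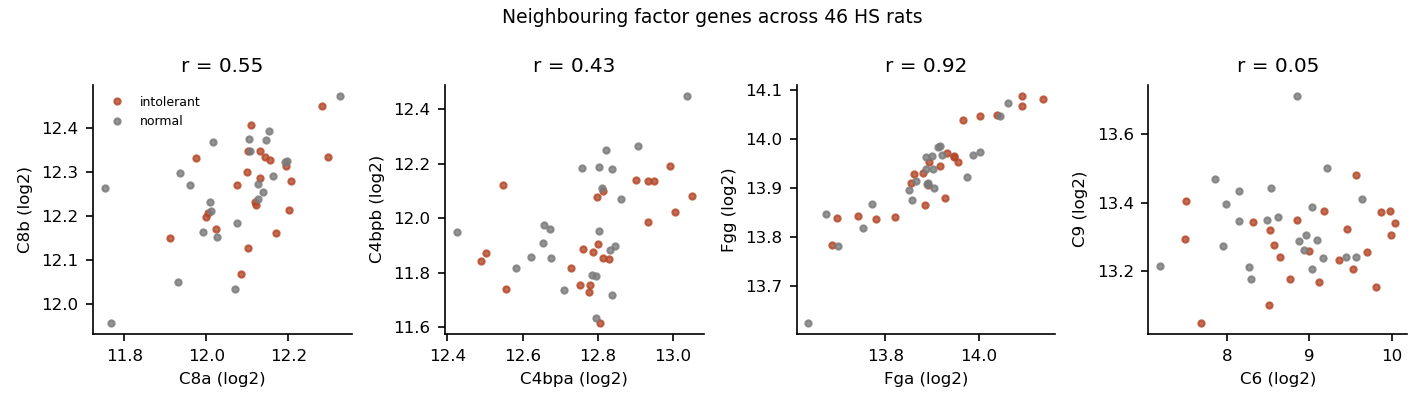
Levels (log2) of 4 pairs of neighbouring genes in 46 HS rats, intolerant and normal rats in different colours, with Pearson's r above each panel. Fga and Fgg lie close to a line (r = 0.92), and C6 and C9 show no relation (r = 0.05).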

How the data were processed

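Liver RNA of 58 rats was amplified with a cDNA kit and hybridised to Affymetrix rat arrays, per the labels' protocols. The authors deposited log2 expression values for 31042 probe sets; how they were normalised is not stated in the labels, and Partek is the program in the submitters' processing notes. Scan dates, families and cages are not given either, so no batch was tested, and p-values measure the spread between arrays, whose number limits the precision.

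Gene symbols came from the array's GEO annotation (20826 probe sets with 1 symbol, 436 with several, 9780 with none), and each measured member's gene identifier gave the same symbol in the GRCr8 table. The tests used R 4.3.3 and limma 3.58.1 (lmFit and eBayes) on all probe sets without a filter, with Benjamini-Hochberg adjustment over them and a threshold of 0.05. Strains were fitted on 12 arrays (6 residual degrees of freedom) and glucose groups on 46 (44 residual degrees of freedom). Correlations used permutation tests with 100000 resamples. Of 7 planned pairs, 3 held an unmeasured gene. The fits were tested on simulated data.

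Members and gene lists were chosen with earlier results of these data known. Values are given for every F-test call, for the 3 factors of smallest p per class in the glucose comparison, for the 3 most and least variable per class, and for up to 5 called genes per other list, besides genes added after their values were seen. Alternatives covered scaling, variance estimation, probe set choice, array weights, pooled spread, the replicate number and single-array omission.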

Additional observations from a re-analysis of the deposited data

How the results depend on the processing

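The 4 members called by the F test became 8 with array weights (27.6%, against 17% of all genes) and 14 in the fit of all arrays (48.3%, against 19.5% of all genes). For complement alone, 2 became 4 with trend and robust variance, 5 with array weights and 7 in the fit of all arrays. Over all genes the shares called were 14.3%, 17% and 19.5%. For coagulation alone, 2 became 1 after quantile normalisation and 7 in the fit of all arrays, beside 13.6% and 19.5% of all genes. Leaving out single arrays gave 2 to 11 members (1 to 6 complement and 0 to 5 coagulation) and 6 to 18 called member and strain pairs against 10. The count was 11 without BUF array 1 (37.9%, against 23% of all genes). It was 2 without either ACI, BN or M520 array or BUF array 2 (6.9%, against 8.07% to 11.7% of all genes). With the replicate number as a block, 5 members (17.2%, against 14% of all genes) and 11 pairs were called. Differences between replicates 1 and 2 correlated between strains at -0.15 to 0.42 over 15 strain pairs, with a median of -0.06 and 3 above 0.1. Without scan dates, this does not settle whether the replicate numbers pair some arrays. No factor was called between the glucose groups under any of 7 alternatives, nor without normal rat 16 or 39. Pearson's r of the 4 neighbour pairs kept its side of the threshold under the other 5 settings and without either of those rats. Spearman's rho did too, except that C8a with C8b lost it within intolerant rats (0.43) and C4bpa with C4bpb within normal rats (0.40). No call changed direction. The cause of these changes was not tested.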
